A study of Drosophila melanogaster with 2 samples.

Results

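The regions described are binding peaks of the Drosophila protein Dan whose summits lie near the start of a single gene, and not between a pair of genes that are transcribed away from each other. They come from the list past the threshold that was made from both replicates together. A peak was taken where its summit lay within 500 bp of a transcription start site (TSS) of a protein-coding gene. It was left out where a minus-strand start of 1 gene on its left and a plus-strand start of another gene on its right both lay within 1000 bp. Of 1396 peaks, 1301 lay on the chromosome arms, and 259 of these, or 19.9%, met the rule. A further 208 peaks lay between divergent starts within the same 500 bp, and 834 lay away from starts. The chromatin was from whole Drosophila melanogaster embryos aged 0 to 8 h of the strain dan-GFP, which carried dan fused to eGFP, in a single group of 2 biological replicates, and was precipitated with an antibody against GFP. No second genotype, age or treatment was compared, whole embryos mix all cell types, and the labels used here do not give the control of the transgene or its copy number.

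Dan is the nuclear product of distal antenna, and carries a DNA-binding domain of the Pipsqueak type. It is known for its part in antennal identity, in eye development and in neuroblasts of the fly. A promoter is the DNA just around and upstream of a TSS, where RNA polymerase and its general factors assemble. Many fly promoters come as pairs that share the DNA between them. A single promoter has its own upstream DNA, which can also be an intron of a longer transcript of the same gene or of a neighbour. Some promoters of regulated genes carry GAGA repeats, the site of GAGA factor (encoded by Trl), while strings such as the DRE are known from promoters of broadly expressed genes.

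The sequences at the summits of 5 of the strongest regions are shown first, as examples of their base composition. Each is the 101 bp centred on the summit, 5′ to 3′ on the strand of the gene, from the RefSeq copy of Release 6 (dm6), and capitals mark runs of 6 or more A or T. They are the 5 strongest on the arms used for printing among members with at most 30 bases of exon in the window. All 5 windows had 0 exon bases. They lie at chrX:2137303-2137403 for ph-p, chr3L:19590565-19590665 for CG14100, chr3L:1746716-1746816 for CG13921, chrX:8455371-8455471 for org-1 and chr2L:4997602-4997702 for Rtnl1. CG13921 lies on the plus strand and the others on the minus strand.
ph-p: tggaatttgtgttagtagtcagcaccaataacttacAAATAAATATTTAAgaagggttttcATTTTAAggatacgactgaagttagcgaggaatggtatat
CG14100: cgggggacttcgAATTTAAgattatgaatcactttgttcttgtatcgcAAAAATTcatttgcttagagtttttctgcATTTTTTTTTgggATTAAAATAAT
CG13921: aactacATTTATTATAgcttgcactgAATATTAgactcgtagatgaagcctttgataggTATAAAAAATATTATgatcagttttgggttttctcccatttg
org-1: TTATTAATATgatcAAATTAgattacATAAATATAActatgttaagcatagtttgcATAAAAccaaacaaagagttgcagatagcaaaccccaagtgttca
Rtnl1: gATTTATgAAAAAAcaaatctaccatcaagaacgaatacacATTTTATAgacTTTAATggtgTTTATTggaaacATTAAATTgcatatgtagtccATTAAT
The GC content of these windows was 31.7% for ph-p, 29.7% for CG14100, 30.7% for CG13921, 27.7% for org-1 and 25.7% for Rtnl1. Every window held A/T runs on both sides of its centre.

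A second set shows the GAGA repeat, the string with the lowest p between single-promoter and divergent-promoter peaks. Each is the 201 bp centred on the summit on the plus strand, which is also the strand of the gene, and the 4 were chosen after their values were seen. Capitals mark GAGAGA or its complement TCTCTC, and CAGTG or its complement CACTG, and marks that overlap run together. The windows lie at chr3R:29618795-29618995 for CG1907, chr3R:21870427-21870627 for CG31431, chrX:8709324-8709524 for Hexo2 and chr2L:2221699-2221899 for papi, all with 0 exon bases.
CG1907: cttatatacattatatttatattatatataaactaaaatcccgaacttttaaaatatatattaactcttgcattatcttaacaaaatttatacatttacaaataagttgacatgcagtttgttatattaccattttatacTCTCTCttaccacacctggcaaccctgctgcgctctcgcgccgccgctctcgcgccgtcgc
CG31431: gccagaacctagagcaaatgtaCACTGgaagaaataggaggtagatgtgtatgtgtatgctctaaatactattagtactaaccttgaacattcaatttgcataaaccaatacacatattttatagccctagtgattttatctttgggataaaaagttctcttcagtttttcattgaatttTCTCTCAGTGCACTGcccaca
Hexo2: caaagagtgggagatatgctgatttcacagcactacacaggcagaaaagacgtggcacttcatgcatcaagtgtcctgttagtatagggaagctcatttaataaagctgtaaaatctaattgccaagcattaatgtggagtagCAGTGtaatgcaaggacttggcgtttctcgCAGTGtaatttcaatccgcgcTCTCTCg
papi: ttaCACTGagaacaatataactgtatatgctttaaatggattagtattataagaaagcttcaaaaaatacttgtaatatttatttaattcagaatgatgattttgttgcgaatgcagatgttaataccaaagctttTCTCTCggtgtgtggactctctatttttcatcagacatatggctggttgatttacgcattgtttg
In all 4 windows the repeat lay past the centre on the side toward the gene, in CG31431 and Hexo2 near the end of the window.

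The annotation around the members gave their arrangement, part of which the rule fixes by leaving out divergent starts within 1000 bp. Of the 259 members, 233, or 90.0% (95% exact binomial interval 85.6 to 93.3%), had no start of any other protein-coding gene within 1000 bp of the summit. Another 13 had a further start on the same strand as the nearest gene, and 13 had at least 1 on the opposite strand without the divergent arrangement. Counting the starts of genes of all biotypes would move 8 members to the divergent class. The members fell on 5 arms, with 72 on 3R, 51 on 2R, 50 on X, 46 on 2L and 40 on 3L, and 0 on chromosome 4 or Y. Intervals here cover counting error over regions, which share the same 2 libraries, and the depth of each library is unknown.

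The 259 members belonged by their nearest start to 243 genes, or 1.74% of 13968 protein-coding genes, beside 207 genes, or 1.48%, nearest to a divergent-promoter peak. Of the 243, 228 had 1 member, 14 had 2 and Ptpmeg2, a protein tyrosine phosphatase gene, had 3. For 6 of the 15 genes with several members the regions were separate. These included Rtnl1, with signals of 386 and 155 at different starts, and ph-p. In the other 9 the weaker region overlapped a stronger region of the same list.

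Genes beside single-promoter peaks ran from compact to very long. Their median span from first to last annotated base was 6506 bp (quartiles 2566 and 17993), against 2709 bp for genes nearest to divergent-promoter peaks and 2164.5 bp for all protein-coding genes. Distinct start sites numbered 2 or more in 137 of 243, or 56.4% (49.9 to 62.7%), against 46.4% (39.4 to 53.4%) beside divergent-promoter peaks and 26.5% of all genes. A gene with more starts offers more places for a summit to meet the rule, and the part of this in the shares was not tested. Symbols made of CG and a number, which mark genes without a given name, made up 27.2%, against 30.4% beside divergent-promoter peaks and 43.7% of all genes.

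Signal, the authors' peak caller's own value for each region, had a median of 113 over the members (quartiles 81.0 and 190.2, range 4.57 to 951). Its scale is not stated, so it ranks regions within a list and nothing more. The median was 120 for divergent-promoter peaks, 96.6 for all peaks on the arms and 19.7 for the 11409 weaker regions that met the same promoter rule. Above the median of all arm peaks lay 162 of 259 single-promoter peaks, or 62.5%, and 138 of 208 divergent-promoter peaks, or 66.3%. By a two-sided Fisher's exact test, Benjamini-Hochberg adjusted over 4 features, this difference did not pass (odds ratio 0.847, adjusted p = 0.437).

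The strongest member lay in an intron of ph-p, a Polycomb group gene of the complex PRC1, with a signal of 951, and of 487 in replicate 1 and 480 in replicate 2. Its summit lay 498 bp upstream of the nearest start, just inside the limit of the rule. The neighbouring gene ph-d is known as a near-identical tandem copy of ph-p, so reads of this locus may be shared between the copies and its signal is uncertain. Next came px, or plexus, known for its part in wing vein patterning, with 914 at chr2R:22514170-22514448 and 563 and 354 in replicates 1 and 2. CG14100 had 908 at chr3L:19590474-19590758, 91 bp upstream of its start, with 521 and 404 in the replicates. The fourth by rank, CG13921, had 627, with 363 and 266 in the replicates.

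Regulators of transcription among the 25 strongest members were ph-p, the HMG-box gene Sox14 and the T-box gene org-1. Sox14 had a signal of 589, with 299 and 300.1 in replicates 1 and 2, at chr2R:23978431-23978671 and 233 bp upstream of its start. The peak of org-1 had 413, with 242 and 173 in the replicates, 352 bp upstream at chrX:8455309-8455541. Both lay between genes.

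The next genes are grouped by known role for reading alone, since no list of such genes was tested. Fkbp14, which encodes a prolyl isomerase, had a signal of 424, with 249 and 173 in replicates 1 and 2. Rtnl1, a reticulon that shapes the tubules of the endoplasmic reticulum, had 386, with 210.2 and 175 in the replicates. TRAM, a component of the protein translocation channel, had 342, with 208 and 142 in the replicates, 81 bp upstream of its start.

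Metabolic, translation and signalling genes were also among them. The peak of eIF6, which encodes a factor that keeps ribosomal subunits apart, had a signal of 371, with 199 and 175 in replicates 1 and 2. GstE13, a glutathione S-transferase gene, had 359, with 203 and 156 in the replicates, and its summit lay 85 bp inside the gene. The phosphoserine phosphatase gene aay had 330.4, with 176 and 153. The cGMP-dependent protein kinase gene foraging (for) had 312, with 197 and 115, in an intron 354 bp upstream of the nearest start. NimC4, a receptor gene for the uptake of dead cells, had 349.9, with 187 and 166, and RluA-1, named as a pseudouridine synthase gene, had 351. Hsp27, a small heat shock protein gene, was the last of the 25 with 289, and with 148 and 137 in the replicates.

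The other members of the 25 were CG1888, CG8320, tank, CG11857, CG18549, MFS18, CG9147, brwl and MFS10, with signals from 293 for MFS10 to 546 for CG1888. All 25 were in both replicates' own lists, where the lowest signals among them were 148 and 115. Since those libraries also made the list that ranks them, this agreement is a description. Of the 25 summits, 21 lay upstream of the nearest start and 0 lay in coding exons, and their GC content ran from 26.9% to 49.3%. Of the 4 others, CG8320, tank and CG9147 had an opposite-strand start nearby and GstE13 had not.

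At the other end, the lowest signals were 4.57 at Tsp5D, 4.71 at garz and 6.79 at Sdb. All 3 regions overlapped a stronger region of the same list, as did 10 of the 259 members. Without these 10 the lowest signal was 52.4 and the median 115. At the limit of the rule, the members just inside were amn at 492 bp with a signal of 133, ph-p at 498 bp, and CG4496 at 498 bp with 191. Just outside were CG10479 at 504 bp with 328, PHDP at 508 bp with 167 and Cyp310a1 at 514 bp with 101.

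The replicates' own lists held unequal numbers of the members, and also of the divergent-promoter peaks (80.8% in replicate 1's list and 56.7% in replicate 2's). Replicate 2's own list held fewer regions that met the rule, 131 against 227 in replicate 1's. Replicate 1's list overlapped 198 (76.4%, 70.8 to 81.5%), replicate 2's 124 (47.9%, 41.6 to 54.1%), both 118 (45.6%, 39.4 to 51.8%), and neither overlapped 55. Nearly all members met a ranked region in each library, 256 in replicate 1 and 246 in replicate 2. Members outside replicate 2's list stood there at a median of the 98.3 percentile of all ranked regions by signal. Rank agreement could be read over the 243 members that met a ranked region in each library, with Spearman's rho of 0.775 and Pearson's r of the log10 signals of 0.776. Peaks are not independent, and the list was chosen on rank agreement, so this describes the listed regions.

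**Figure D1:**
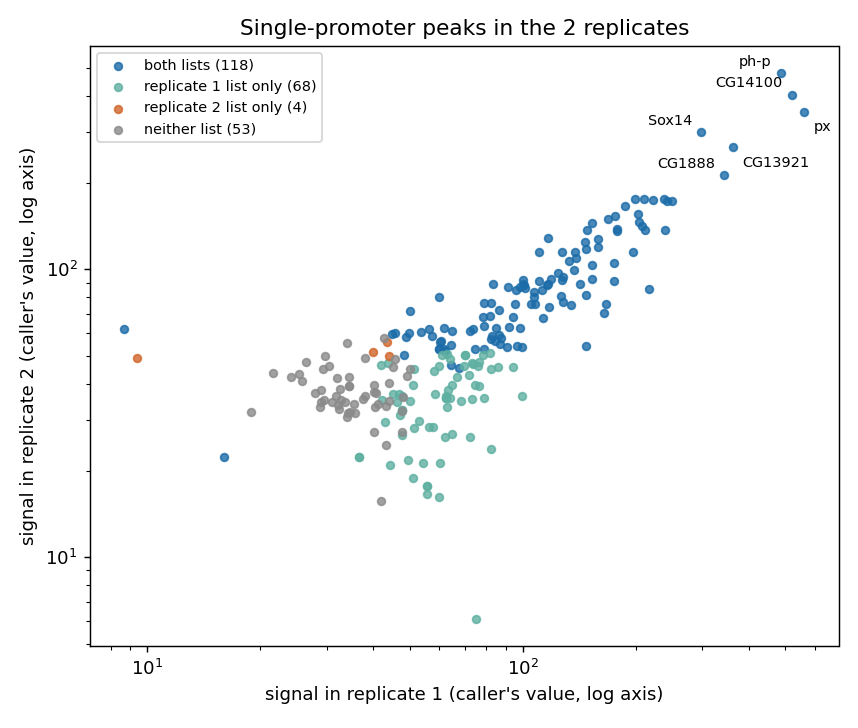
Signal of each single-promoter peak in replicate 1 (x axis) and replicate 2 (y axis), both on log axes in the caller's own units, for the 243 members with a ranked region in both. Colours give the replicate lists that hold the peak. Most of the 118 peaks of both lists fill the upper right, led by ph-p, px and CG14100.

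Presence in both lists followed the signal, which came from the same 2 libraries, so this is a description. With the members split by signal into 4 groups of nearly equal size, it was 96.9% in the strongest group, 66.2% in the next, then 15.6%, and 3.08% in the weakest. Compared with divergent-promoter peaks, single-promoter peaks were in replicate 1's list in 76.4% against 80.8% (adjusted p = 0.412) and in replicate 2's in 47.9% against 56.7% (adjusted p = 0.125, odds ratio 0.701), by the same exact test over the same 4 features. Neither passed the threshold of 0.05. With promoters taken as 1000 bp, the second difference did, at -10.4 percentage points for single minus divergent (adjusted p = 0.038, Fisher's exact test).

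Most summits lay upstream of the nearest start, which need not be the first start of its gene. Of 259, 210, or 81.1% (75.8 to 85.7%), were upstream of the nearest start, against 36.6% (35.7 to 37.4%) of the weaker regions chosen by the same rule. The median distance was 205 bp (quartiles 141 and 324.5), against 103 bp from the nearer start for divergent-promoter peaks. The fullest bin of 50 bp, from 200 to 150 bp upstream, held 47 members, or 18.1%, while the 50 bp just upstream of the start held 4, or 1.54%. With the most 5′ start of each gene alone, 232 peaks met the rule and the upstream share was 67.2%.

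**Figure D2:**
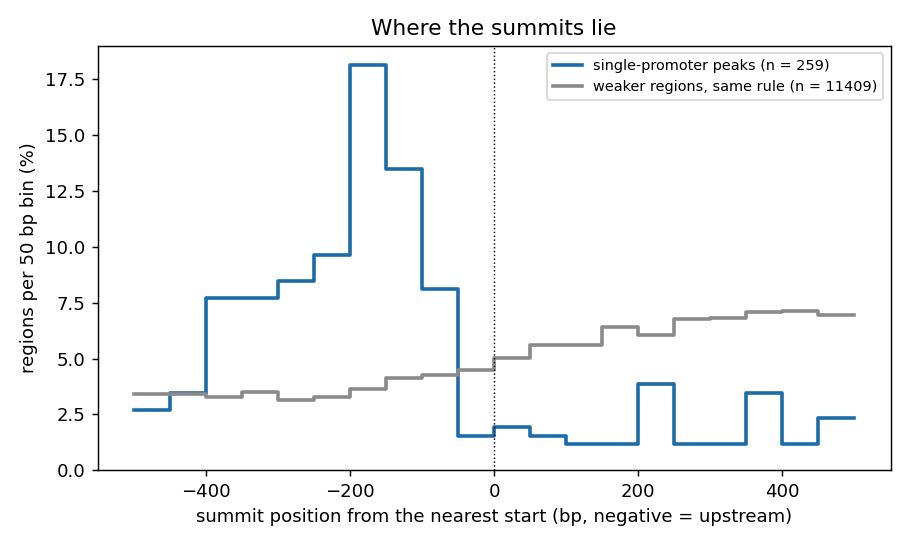
Percent of regions per 50 bp bin (y axis) by the signed distance of the summit from the nearest start (x axis, bp, negative upstream), for the 259 single-promoter peaks and the 11409 weaker regions. The peaks are fullest from 200 to 150 bp upstream at 18.1%, and the weaker regions grow slowly into the gene.

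The 49 members downstream of the nearest start had lower signals and a higher GC content in these values. Their median signal was 84.5, against 118 for the 210 upstream, and their mean GC content 46.5%, against 36.1%. They were in neither replicate's own list in 42.9% (28.8 to 57.8%), against 16.2% (11.5 to 21.9%). These values are descriptions of groups that share libraries and were not tested.

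By annotation at the summit, 98 members lay in introns, 37 in non-coding parts of exons, 20 in coding exons and the rest between genes. The 20 in coding exons had a median signal of 67.7 and no more than 85.8, beside 119 between genes, 118 in introns and 133 in non-coding exon parts. Of the 20, 19 lay downstream of the start and 19 overlapped neither replicate's list. Their mean GC content was 58.5%. The strongest of them was CG6052, with a signal of 85.8, of 40.2 in replicate 1 and 39.7 in replicate 2, in a window of 63.7% GC.

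DNA at the summits was rich in A and T, at a mean near that of promoter windows in general. Over the 201 bp windows, GC content averaged 38.1% ± 9.42 (SD over 259 peaks), against 32.8% ± 5.31 (SD over 208 peaks) for divergent-promoter peaks, 49.0% for the weaker regions and 38.3% in windows centred 150 bp upstream of all starts. Below the median GC content of all arm peaks lay 139 single-promoter peaks, or 53.7%, and 162 divergent-promoter peaks, or 77.9%. Single-promoter peaks thus were A/T-rich less often (adjusted p = 1.81e-07, odds ratio 0.329, the same exact test over 4 features). Promoter windows taken without regard to Dan lay in the same order, with 39.9% GC over 13819 single and 34.2% over 5450 divergent promoter windows. How much of the difference between the peaks comes with the promoter class was not tested.

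**Figure D3:**
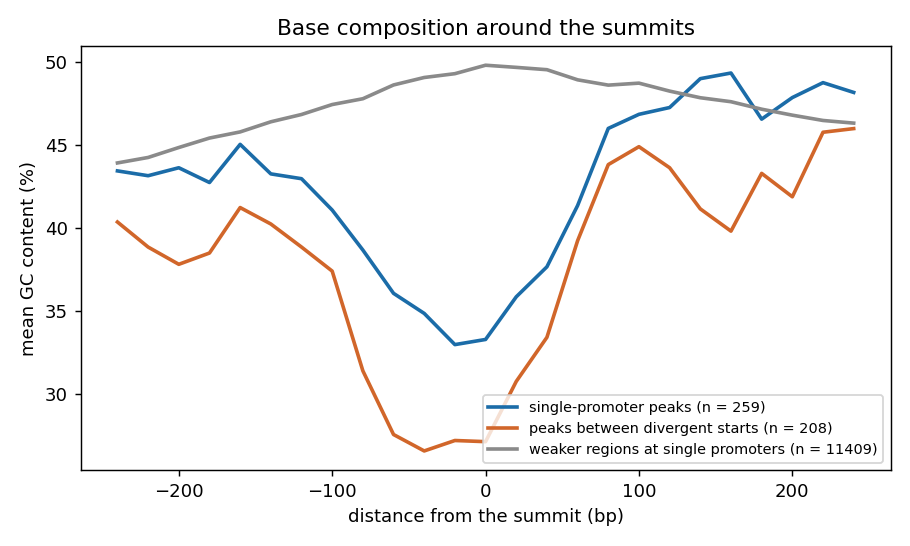
Mean GC content in 20 bp bins (y axis, %) by distance from the summit (x axis, bp, positive toward the gene), for single-promoter peaks, divergent-promoter peaks and weaker regions at single promoters. The single-promoter curve falls to 33.0% next to the summit and the divergent-promoter curve to 26.6%, while the weaker regions peak at the summit at 49.8%. Most weaker regions lay downstream of the nearest start, and most single-promoter peaks upstream.

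The low GC content was local. It fell from 43.4% at 240 bp before the summit to 33.0% at 20 bp before it, and rose to 49.0% at 140 bp past it toward the gene. Divergent-promoter peaks also had a dip, to lower values. Theirs went from 40.4% at 240 bp before the summit to 26.6% at 40 bp before it, and to 44.9% at 100 bp past it. Weaker regions had the opposite shape, with 49.8% at the summit. Most of them lay downstream of the nearest start and most members upstream, and the part of this in the contrast was not tested. The GC profiles are means over all regions of a group, and single windows, such as those printed, need not follow them.

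A smaller part of the members did not share it. In 29, or 11.2% (7.63 to 15.7%), GC content was above 50%, as in 1 of the 208 divergent-promoter peaks and in 47.5% of the weaker regions. Their median signal was 68.0, 9 of the 29 lay upstream, and 24 overlapped neither replicate's own list. The strongest of them was moody, a receptor gene of the blood-brain barrier, with 240 in an intron, of 138 in replicate 1 and 115 in replicate 2. Across all members, Spearman's rho between signal and GC content was -0.25 (n = 259), and -0.20 without the 10 regions that overlap a stronger region, and it was 0.037 over divergent-promoter peaks. These are descriptions over regions of the same libraries.

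Of 20 motif strings searched on both strands within 100 bp of the summit, 7, or 35% of those tested, differed between single-promoter and divergent-promoter peaks at an adjusted p under 0.05 (two-sided Fisher's exact tests, Benjamini-Hochberg over 20). The GAGA string GAGAGA was more frequent at single promoters, in 40 of 259 windows, or 15.4% (11.3 to 20.4%), against 4 of 208, or 1.92% (0.526 to 4.85%), with an odds ratio of 9.31 and an adjusted p of 2.59e-06 by the exact test. It passed in all 14 alternatives run on it, with adjusted p up to 0.0401.

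Promoters taken over the genome lay in the same order for GAGAGA. It was found in 13.2% (12.6 to 13.7%) of 13819 single promoter windows and in 6.44% (5.80 to 7.12%) of 5450 divergent ones. Within 100 bp, the share at single-promoter peaks was therefore near that of single promoters in general. That at divergent-promoter peaks lay under that of divergent promoters. Promoter windows were centred 150 bp upstream of a start, not on a summit, and were not searched more widely. Within 150 bp of the summit, GAGAGA was in 28.2% of single-promoter and 3.85% of divergent-promoter peaks. It was in 16.9% of peaks away from starts and 11.4% of weaker regions at single promoters at that width. Within 100 bp, the weaker regions had it in 7.91% at single and 7.35% at divergent promoters. A match is a run of letters and does not show that GAGA factor is bound.

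The other 6 strings were less frequent at single promoters. TATAAA, the TATA box string, was in 33.2% against 48.1% (adjusted p = 0.0082, exact test), and AAAAAA in 39.0% against 52.9% (adjusted p = 0.0131, exact test). TAATTA, a homeodomain core, was in 13.1% against 23.1% (adjusted p = 0.0229, exact test) and CANCNCTA, from the core promoter string called motif 7, in 8.88% against 19.7% (adjusted p = 0.0082, exact test). ATCGAT, the core of the DRE, was in 5.02% against 11.5% (adjusted p = 0.0423, exact test). GGTCACAC, known as motif 1, was in 0 of 259 windows, which by a limit of 3 counts of the total allows a share of up to 1.16%, against 7 of 208 (adjusted p = 0.0131, exact test). None of the 6 passed in more than 8 of 14 alternatives. In each, all divergent promoters also exceeded all single promoters, as in 40.5% against 27.6% for TATAAA and 17.3% against 9.59% for ATCGAT.

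**Figure D4:**
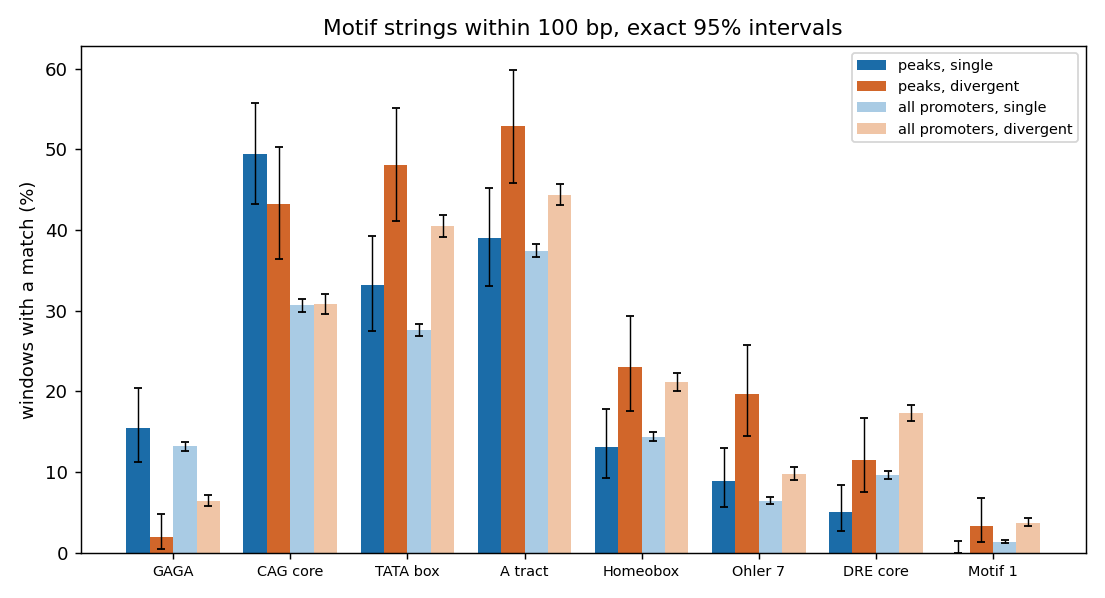
Percent of 201 bp windows with a match (y axis) for 8 strings (x axis), in single-promoter and divergent-promoter peaks and in windows 150 bp upstream of all single and all divergent starts. Bars are shares and lines are exact 95% binomial intervals. GAGA is at 15.4% in single-promoter and 1.92% in divergent-promoter peaks, and CAGTG, drawn as CAG core, at 49.4% and 43.3%, against 30.7% and 30.8% in the promoter classes.

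CAGTG, a string taken into the search because earlier results of these data had shown it, did not differ between the classes past the threshold. It was in 128 of 259 single-promoter windows, or 49.4% (43.2 to 55.7%), and in 43.3% (36.4 to 50.3%) of divergent ones (adjusted p = 0.331, odds ratio 1.28, exact test). It was in 37.9% of the weaker regions and in 30.7% of single and 30.8% of divergent promoter windows. Peaks away from starts had it in 56.6%. Its longer form CACAGTG was in 37 single-promoter windows, or 14.3% (10.3 to 19.2%), in 5.29% (2.67 to 9.27%) of divergent-promoter peaks, 8.51% of peaks away from starts, 3.17% of weaker regions and 2.62% of all promoter windows. The longer string was picked after its values were seen and has no test.

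The strings had different places around the summit. Of 62 GAGAGA matches in the member windows, 14, or 22.6%, lay within 50 bp of the summit, against 51.0% of the matches in weaker regions. The string was in 4.63% of members within 50 bp, in 12.7% from 50 to 100 bp and in 15.8% from 100 to 150 bp. From 250 to 300 bp it was still in 13.1%, while weaker regions had 4.03 to 4.79% per step. Over the steps out to 150 bp, peaks away from starts had 3.72%, 9.11% and 7.07%, and divergent-promoter peaks 0%, 1.92% and 2.40%. From 250 to 300 bp they had 4.92% and 3.85%. CAGTG was on the flanks as well, in 19.3% of members within 50 bp of the summit, in 37.8% from 50 to 100 bp and in 36.7% from 100 to 150 bp, and back at 18.1% from 150 to 200 bp. Divergent-promoter peaks were also highest from 50 to 150 bp, with 12.5%, 35.6%, 38.9% and 21.6% in these steps, and peaks away from starts had 24.1%, 39.8%, 31.1% and 20.9%. In weaker regions it was flat, between 22.4% and 18.3% per step. TATAAA did the opposite, with 82 of 127 matches, or 64.6%, within 50 bp of the summit, where GC content is lowest. Divergent-promoter peaks shared this, with 85 of 144 matches, or 59.03%, within 50 bp, while weaker regions had 47.31%. TATAAA was in 31.73% of divergent-promoter peaks within 50 bp and in 15.87% from 100 to 150 bp. Peaks away from starts had 16.43% and 8.273% in these steps. Of the 40 members with GAGAGA, 28 also held CAGTG (70.0%, 53.5 to 83.4%), against 45.7% (38.9 to 52.5%) of the other 219. As in the printed windows of CG31431, Hexo2 and papi, both strings could lie in 1 window, and TCTCTCAGTG in CG31431 holds both in overlap.

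**Figure D5:**
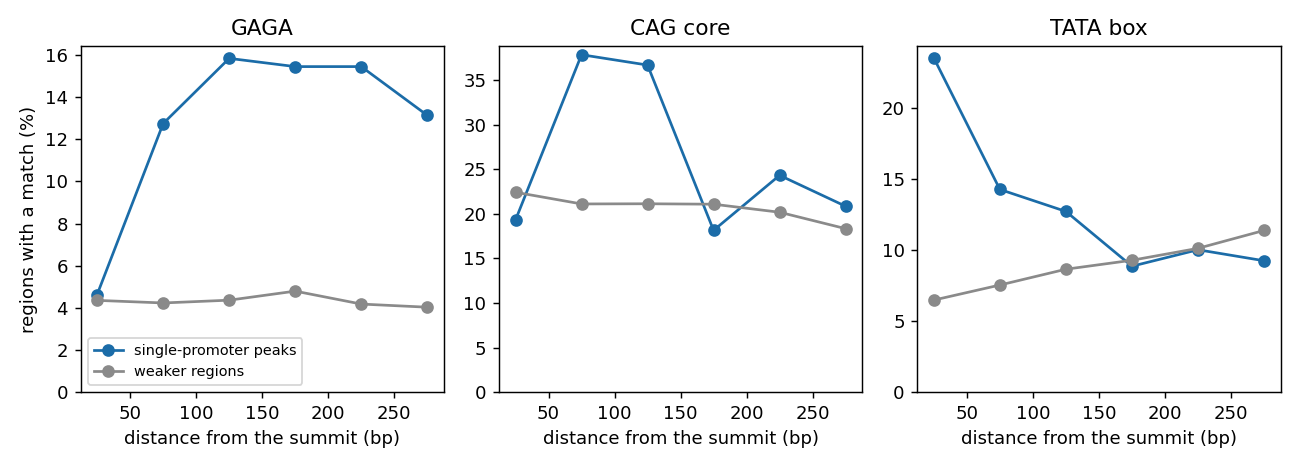
Percent of regions with a match (y axis) in steps of 50 bp from the summit (x axis, bp, both sides together), for the GAGA, CAGTG and TATA box strings in the 259 single-promoter peaks and in weaker regions. CAGTG, drawn as CAG core, is highest from 50 to 150 bp at 37.8% and 36.7%, and the TATA box string is highest within 50 bp at 23.6%.

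The 40 members with GAGAGA lay upstream of their start in 37 cases and had a median signal of 103, against 114 for the rest. Their mean GC content was 37.6%, against 38.2%. The strongest of them were px with 914, brwl with 311 and magu with 273. CG1907 had 222, with 165 in replicate 1 and 70.6 in replicate 2. CG31431 had 209, with 110.4 and 91.4, Hexo2, a hexosaminidase gene, had 209, with 127 and 81.0, and papi, known for its part in piRNA biogenesis, had 192, with 107 and 83.2.

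Among all 6-letter strings, those with the largest excess in members over weaker regions were made of A and T alone, led by AAATAT in 53.3% against 17.8%. It was in 60.6% of divergent-promoter peaks and 42.7% of all promoter windows. Among strings with 2 or more G or C, ACAGTG led, with 22.0% against 8.82%, and with 18.3% in divergent-promoter peaks and 9.30% in all promoter windows. GCCAGC was in 8.49% of members and 20.7% of weaker regions. The weaker regions are richer in GC, and the part of this in these differences was not tested.

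The 27 gene lists held 774 entries, some genes in more than 1 list, of which 12, or 1.55%, had a single-promoter peak, near the 1.74% of all genes. Among developmental regulators the members were the segmentation gene bcd, which encodes the anterior morphogen Bicoid, with a signal of 90.8, and tin, the heart and muscle homeobox gene tinman, with 175. Others were stumps, an adaptor gene of the FGF pathway, with 138, elav, a neuronal RNA-binding protein gene, with 265, and aos, which encodes the EGF receptor inhibitor Argos, with 107. The kinase gene sgg of the Wnt pathway had 138 and E(spl)m7-HLH, a target gene of Notch, had 99.8. By list, mesoderm and muscle genes had 2 of 16, Notch and Wnt pathway genes 2 of 20, and neuronal differentiation genes 1 of 15. EGF receptor pathway genes and antenna and limb genes each had 1 of 19, and segmentation genes 1 of 28. Hox genes had 0 of 8, retinal determination genes 0 of 11, ecdysone cascade genes 0 of 13 and neuroblast genes 0 of 24. Differences between lists were not tested.

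The gene of Dan itself, dan, was among the listed genes with a single-promoter peak. Its peak had a signal of 68.5 at chr3R:25184150-25184499, with the summit 58 bp upstream of the start. Neither replicate's own list overlapped it. The flies carry a dan-eGFP insertion whose copy number and extent are not given, and its part in the signal at dan was not tested. The tin peak was in replicate 1's list alone, as were those of bcd, aos and E(spl)m7-HLH, while elav, stumps, sgg, Hsp27 and ph-p were in both. In replicate 2, tin and E(spl)m7-HLH met no ranked region, while aos had a signal of 44.5 and bcd of 26.1.

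Most lists of housekeeping and other cell functions held no gene with a single-promoter peak. Of the 44 translation initiation factor genes, 2 had a single-promoter peak, eIF6 with 371 and eIF3d2 with 74.7, the latter outside both replicates' lists. Of 73 mitochondrial ribosomal protein genes 0 had one, which by a limit of 3 counts of the total allows a share of up to 4.11%, and 4 were nearest to a divergent-promoter peak. Of 93 cytoplasmic ribosomal protein genes 0 had one, which by the same limit allows up to 3.23%. Autophagy genes had 0 of 20 and tRNA synthetase genes 0 of 32, with 4 and 3 at divergent promoters, where the share over all genes was 1.48%. Proteasome genes had 0 of 48, Rab GTPase genes 0 of 36, TAF genes 0 of 24 and kinesin genes 0 of 17 in either class. In all, 18 lists had 0, including Hox, retinal determination and neuroblast genes, and counts of 0 in lists of this size cannot be told apart from 1.74%.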

How the data were processed

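Peak lists from 2 biological replicates of chromatin from dan-GFP embryos were used as deposited, on dm6 per the labels. The signal was deposited by the authors as the value their peak caller gave a region. Its scale, the aligner, the caller and the depth were not given in the sources used. The authors' deposited score grows as the logarithm of the irreproducible discovery rate (IDR) falls. The IDR is a measure of rank agreement between sets of calls. The lowest score in the list used is 830, an IDR of 0.01. The deposited −log10 q was used as an alternative to the signal. All 1396 peaks of the list were found with the same interval in the ranked list used. Its 125678 arm regions under the threshold that overlap no peak are the weaker regions, and are not unbound DNA.

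Starts were those of all transcripts of protein-coding genes in Ensembl release 115, whose coding starts read ATG in 99.8% of 2657 genes on 2L of the RefSeq sequence. Gene names come from that annotation, and 2 list entries were not matched. Overlap with a replicate's list needed 1 bp. Single-promoter and divergent-promoter peaks were compared with Fisher's exact test, two-sided, and p-values were adjusted by Benjamini-Hochberg over 4 features and over 20 strings. Intervals are exact binomial at 95%. Where a count was 0, its upper limit was set at 3 counts. Regions, not samples, are the units of these tests, so p-values do not measure the spread between embryos, and the labels give no second group.

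The members, gene lists and strings were chosen with earlier results of these data known. Named genes are those of the 25 strongest members, the 3 weakest, the 3 nearest on either side of 500 bp, up to 4 members per gene list, and those with several members. Ptpmeg2 falls under the last part, and moody, CG6052, magu and the members whose GAGAGA windows are printed were named after their values were seen. Alternatives covered the list, the distances, the set of starts, the window and the overlap. Tests ran in scipy 1.17.1 and tables in pandas 2.3.3 and numpy 2.4.6 under Python 3.11.15, plots were drawn with matplotlib 3.10.9, and the functions were tested on simulated data.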

Additional observations from a re-analysis of the deposited data

How the results depend on the processing

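No paired analysis was possible because the study has 1 group and so no second group that shares replicate numbers. Of 115 values under the alternatives, 89 kept their direction, their side of the threshold or their range. Using each replicate's own list alone in place of the joint list gave 131 to 227 single-promoter peaks and an upstream share of 84.0 to 85.5%. Mean GC content was then 35.7 to 37.1%, and 1 motif differed. The difference in the share above the median signal was -0.662 to 0.0495 points. An IDR of at most 0.001 gave 117 peaks, 86.3% upstream, 35.6% GC, 88.9% in both replicates' lists and 1 motif. A promoter distance of 200 bp gave 123 peaks, 87.0% upstream, 54.5% in both lists and 1 motif, and 1000 bp gave 71.6% upstream and a difference in replicate 2's list of -10.4 points (adjusted p = 0.038, Fisher's exact test). With the most 5′ start alone, 67.2% were upstream, 69.8% had no other start within 1000 bp and 2 motifs differed. A divergent distance of 500 bp gave 81.7% with no other start. Windows of 50 and 150 bp gave 35.02% and 40.5% GC, and 50 bp gave 1 motif. The conservative list gave 54.8% in both lists and 2 motifs. Its difference in the share above the median signal, 5.23 points, reversed sign without passing the test, as did 0.0495 points in replicate 1's list. The causes were not tested. The difference in the share of peaks below the median GC content passed in all 14 alternatives (single minus divergent, -14.4 to -28.4 percentage points). GAGAGA also passed in all 14. Leaving out regions that overlap a stronger region, added after the data were seen, changed none of these calls. Depth is unknown, so members missing from a replicate's list were not shown to be absent there.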
